A study of Mus musculus with 4 samples.

Results

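The cells described here are oligodendrocyte precursor-like (OPC-like) cells in mouse medulloblastomas. They were chosen from the counts with a gate on 8 genes: Lhfpl3, Matn4, Pdgfra, Sox10, Olig1, Cspg4, Qpct and Pllp. A cell entered with at least 3 UMIs (unique molecular identifiers, each standing for 1 captured transcript) of these genes, from at least 2 of them, and at least 10 such UMIs per 10000 UMIs of the cell. Of 4137 kept cells, 161 were OPC-like: 36, 52, 23 and 50 in mice 1 to 4. They were set against 2793 marker-free cells, which held 0 UMIs of the 8 genes, and against 67 astroglia-like cells outside the gate. The astroglia-like cells met a gate of the same form on Aqp4, Gja1, Slc1a2, Slc4a4, Cldn10, Slc6a11, Aldoc and Agt. The marker-free cells included 32 of 38 myeloid cells and 46 of the astroglia-like cells. Another 1183 kept cells held UMIs of the 8 genes without being OPC-like.

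All cells came from tumours of 4 Atoh1-cre:SmoM2 littermates at postnatal day 20, with 1 single-cell 3' library per mouse and no animal of another genotype, so classes of cells were compared within mice. Atoh1-cre switches on SmoM2, a constitutively active form of the hedgehog transducer Smoothened, in granule neuron precursors, and the tumours belong to the Sonic hedgehog (SHH) subgroup. Whether the OPC-like cells carried the recombined allele cannot be read from these counts. The tumours were dissociated with Accutase for 20 minutes, dead cells were sorted away with 7-AAD and 10000 cells were loaded per mouse, steps that can set the share of a cell type.

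Oligodendrocyte precursors are the dividing glia that give rise to oligodendrocytes, the cells that wrap axons in myelin. They divide in response to platelet-derived growth factor through its receptor PDGFRA, carry the proteoglycan NG2 (Cspg4), and depend on transcription factors such as OLIG2, SOX10 and NKX2-2. When they commit to differentiation they lose PDGFRA and pass through a stage with GPR17, BMP4 and ENPP6 before the myelin genes come on. In the cerebellum they share the tissue with granule neuron precursors and astroglia.

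SOX factors and basic helix-loop-helix factors such as OLIG2 act on genes of this lineage, so 4 promoters are shown, each with the 250 bases before the RefSeq transcription start on the plus strand of GRCm38.p6. Capitals mark matches to a SOX-type motif (AACAAT or ACAAAG) or to an E-box (CAGCTG or CATATG), searched on both strands. The promoter of Olig2 is at chr16:91225300-91225549, that of the extracellular matrix gene Tnr at chr1:159523519-159523768, that of the gate gene Lhfpl3 at chr5:22745804-22746053 and that of the receptor phosphatase gene Ptprz1 at chr6:22875252-22875501.
Olig2: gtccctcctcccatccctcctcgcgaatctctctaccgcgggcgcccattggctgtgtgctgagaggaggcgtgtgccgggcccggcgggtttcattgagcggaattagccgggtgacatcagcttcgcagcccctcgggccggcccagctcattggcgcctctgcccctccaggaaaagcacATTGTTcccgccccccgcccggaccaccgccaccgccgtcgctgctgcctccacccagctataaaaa
Tnr: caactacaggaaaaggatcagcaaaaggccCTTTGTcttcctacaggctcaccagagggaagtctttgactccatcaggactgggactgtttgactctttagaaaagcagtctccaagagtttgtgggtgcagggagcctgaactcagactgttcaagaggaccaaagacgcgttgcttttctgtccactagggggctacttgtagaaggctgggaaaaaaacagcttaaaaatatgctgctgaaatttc
Lhfpl3: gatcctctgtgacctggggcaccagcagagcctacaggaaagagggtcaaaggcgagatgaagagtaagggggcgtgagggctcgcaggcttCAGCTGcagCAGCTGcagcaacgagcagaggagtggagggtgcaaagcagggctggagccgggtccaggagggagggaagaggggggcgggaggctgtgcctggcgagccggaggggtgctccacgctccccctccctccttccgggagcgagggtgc
Ptprz1: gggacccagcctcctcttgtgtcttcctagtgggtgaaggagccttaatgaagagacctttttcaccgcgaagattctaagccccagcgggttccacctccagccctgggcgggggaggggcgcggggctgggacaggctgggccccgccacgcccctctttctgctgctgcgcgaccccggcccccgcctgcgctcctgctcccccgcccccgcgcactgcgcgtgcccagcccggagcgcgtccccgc
Olig2 and Tnr each held a SOX-type match, Lhfpl3 held E-box matches, and Ptprz1 held neither. Of the 20 precursor genes outside the gate that were higher in OPC-like cells, 14 had a promoter in the RefSeq table, and 4 of these (28.6%) held a SOX-type match. That share was 24.2% among all 27025 promoters of the table and 15.9% among the promoters of the genes tested. An E-box match was in 1 of the 14 (7.14%), against 15.9% of all promoters and 11.5% of those of the genes tested. Of the 8 gate genes 5 had a promoter in the table, with 0 SOX-type matches and 1 promoter with an E-box. A match describes letters in this window and no binding.

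The gate genes themselves describe the choice of cells and carry no test. Olig1, a helix-loop-helix factor of the lineage, had 570 UMIs and was seen in 142 of the 161 OPC-like cells (88.2%). Pdgfra was seen in 68.3%, Pllp (a proteolipid of myelin membranes) in 64.6%, and Lhfpl3 in 62.7% of them. Matn4, a matrix protein, was in 57.1%, Qpct in 52.2%, Sox10 in 29.2% and Cspg4 in 26.1%. In 3872 other kept cells that were neither astroglia-like nor myeloid, Sox10 was in 0.362%, Matn4 in 0.542% and Lhfpl3 in 1.58%. Olig1 was in 11% and Pdgfra in 18.2% of those cells. Median depth was 1776 UMIs in OPC-like cells and 2089.5 in the other cells. In 38 myeloid cells, which should lack both and had a median of 1244.5 UMIs, Olig1 was in 5.26% and Pdgfra in 2.63%. Pdgfra stood at 5.48 UMIs per 10000 in OPC-like cells, 0.887 in the other cells and 0.304 in myeloid cells, so its level set OPC-like cells apart from the other cells by less than that of any other gate gene. Levels differed between mice: the gate genes summed to 36, 64.2, 38.2 and 37.3 UMIs per 10000 in the OPC-like cells of mice 1 to 4, highest in mouse 2.

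The OPC-like cells covered a wide range of gate levels, from 10.0 UMIs per 10000 to 179.9 with a median of 50.3. They held 2 to 8 of the gate genes, with 31 cells at 2 genes and 6 cells at all 8, and 16 of them had no more than 3 UMIs of these genes. Just outside the gate, 41 cells had at least 3 UMIs from at least 2 genes but stayed below 10 per 10000, the highest of them at 9.83.

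The label was checked against 25 precursor genes outside the gate, such as Olig2, Ptprz1, Cspg5, Gpr17 and Pcdh15. At least 3 UMIs of these genes were in 139 of the 161 OPC-like cells (86.3%), against 11.2% of the 3872 other cells and 0 of the 38 myeloid cells. None was seen in 3 OPC-like cells. Summed per mouse they came to 44.9, 75.8, 48 and 48 UMIs per 10000 in the OPC-like cells of mice 1 to 4, against 3.89, 3.85, 3.74 and 4.38 in the marker-free cells. The astroglia-like cells held 6.5, 8.08, 10.7 and 9.0. The OPC-like values did not overlap with those of either class, and mouse 2 stood highest. By these precursor genes, the label held less firmly near the threshold. The 35 cells with 10 to 20 gate UMIs per 10000 had 18.5 UMIs per 10000 of these precursor genes, the 42 cells at 20 to 50 had 52.2, and the 84 cells at 50 or more had 98.4. Over the same bins myelin genes stood at 33.7, 28.7 and 9.29 UMIs per 10000, against 2.10 in marker-free cells. Genes of the committed stage stood at 43.2, 49.6 and 43.6, against 11.1. Granule-lineage genes stood at 31.4, 25.4 and 9.07 UMIs per 10000, against 39.9 in marker-free cells, and median depth at 3394, 1918 and 1417.5 UMIs. Cells in the lowest bin were thus the deepest, and the part of later stages, doublets or free RNA in them was not tested.

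**Figure D1:**
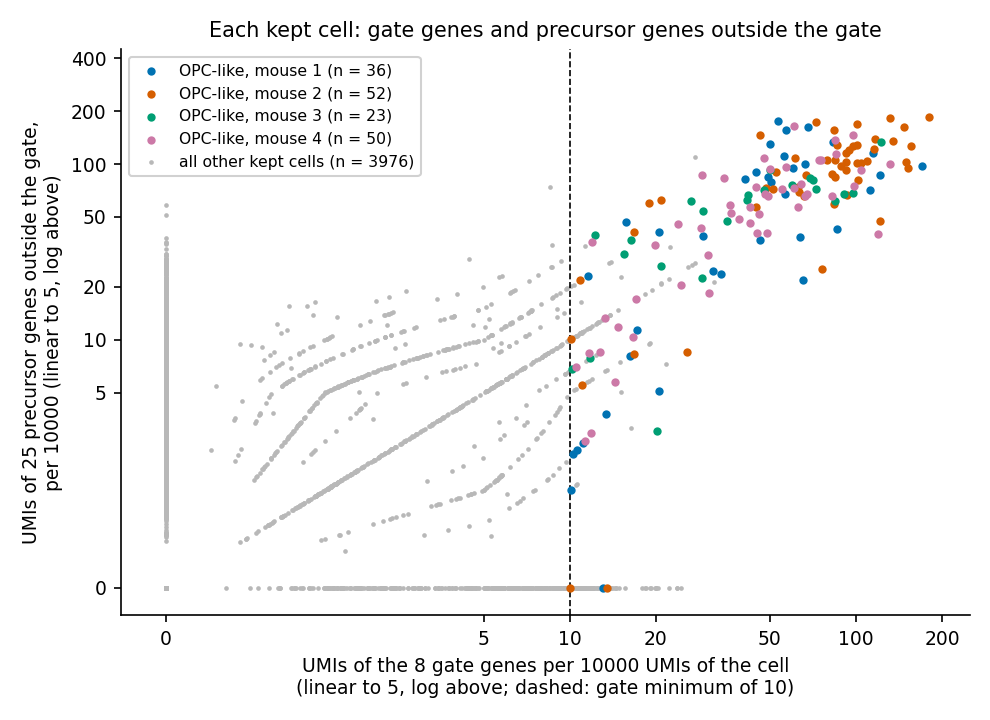
Each point is a kept cell, with UMIs of the 8 gate genes per 10000 on the x axis and UMIs of 25 precursor genes outside the gate per 10000 on the y axis, both linear to 5 and logarithmic above. The 161 OPC-like cells, coloured by mouse, lie at or right of the gate minimum of 10, and those with 50 or more gate UMIs also hold most of the highest values of the precursor genes.

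**Figure D2:**
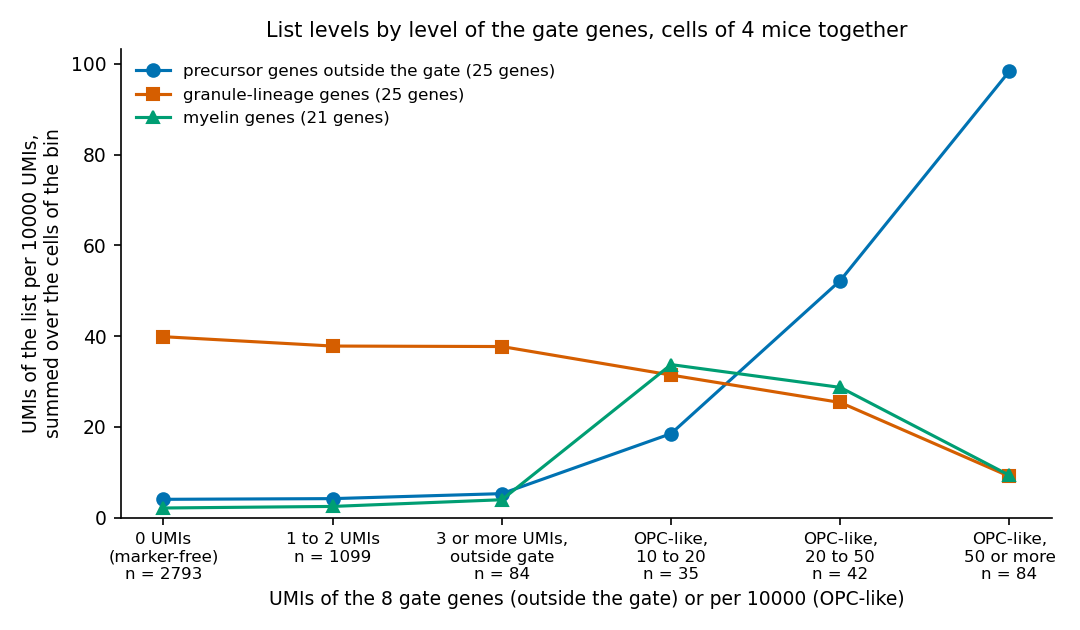
Summed levels of 3 gene lists (UMIs per 10000) by level of the gate genes, over the cells of 4 mice. The precursor genes stood at 18.5, 52.2 and 98.4 in the 3 OPC-like bins, the granule-lineage genes at 31.4, 25.4 and 9.07, and the myelin genes at 33.7, 28.7 and 9.29.

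Markers of most other cell types were low in the OPC-like cells, and genes of astroglia and of the granule lineage were the exceptions. A list of 15 astroglia genes, some of which the astroglia gate used, summed to 13.3, 23.6, 10.2 and 17.1 UMIs per 10000 in the OPC-like cells of mice 1 to 4, against 6.26, 6.17, 4.08 and 6.18 in marker-free cells and a mean of 58.8 ± 15.6 in astroglia-like cells (SD, n = 4 mice). In every mouse the OPC-like cells lay between the other classes, and the part of astroglial RNA in the results was not tested. Lists for endothelial cells, pericytes, fibroblasts, Schwann cells and choroid plexus summed to 11, 6, 2, 11 and 3 UMIs, and blood cell markers to 0 UMIs, of 383083 in all. The microglia and macrophage list had 40 UMIs, of which 38 were in 1 cell of mouse 1, and markers of other neurons had 48. A list of 25 granule-lineage genes summed to 28.1, 15.5, 22.1 and 23.9 UMIs per 10000 in the OPC-like cells of mice 1 to 4. In marker-free cells it summed to 36.7, 41.7, 37.8 and 42.8, and the part of granule-lineage RNA in the results was not tested. A UMI of Atoh1, Barhl1, Cntn2 or Neurod1, genes of the granule lineage, was in 41% of OPC-like and 69% of marker-free cells. Median mitochondrial share was 5.45% in OPC-like and 3.21% in marker-free cells, and the median level of Malat1, a nuclear RNA, was 448 and 112 UMIs per 10000 in the same order.

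OPC-like cells were 2.63% (95% exact Clopper-Pearson interval 1.85 to 3.62), 5.86% (4.4 to 7.61), 3.24% (2.06 to 4.82) and 4.27% (3.19 to 5.59) of the kept cells of mice 1 to 4, on average 4.0% ± 1.41 (SD, n = 4 mice). The intervals cover counting error only, and those of mice 1 and 2 did not overlap. The OPC-like cells of mice 1 to 4 summed to 68981, 115631, 46075 and 152396 UMIs, so that 1 UMI was worth 0.145, 0.0865, 0.217 and 0.0656 per 10000. The marker-free sums ran from 917284 to 1944721 UMIs. Of 5670 barcodes in the files 20 occurred in more than 1 library, and none of these was an OPC-like cell.

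Against the marker-free cells, genes called higher in the OPC-like cells included precursor identity genes, glutamate receptor and potassium channel genes, and genes of adhesion proteins, proteoglycans and sterol synthesis enzymes. Genes called lower included granule-lineage, hedgehog and some cell cycle genes. The UMI sums of each class in each mouse were compared in an edgeR model with the mouse as a block, and a gene was called at a Benjamini-Hochberg adjusted p under 0.05. Of 6583 genes tested outside the gate, 1230 (18.7%) were called, 638 higher (9.69%) and 592 lower (8.99%), and the median log2 fold change over all of them was -0.11. Without mouse 2 the count was 739. DESeq2 called 736, of which 533 were higher and 203 lower. A gene was tested when at least 4 of the 8 sums held 0.187 UMIs per 10000 or more. A gene near 0 in marker-free cells could thus be tested only where it was higher in OPC-like cells. In the same way, a gene near 0 in OPC-like cells could be tested only where it was lower. For several of the lists that follow, the number tested through the OPC-like sums is given. The lists share genes, so their counts are not separate results. Of the precursor genes called higher, Cspg5, Vcan and Tnr are also on the matrix list, and Cntn1 and Dscam on the adhesion list. Cacng4 is also on the ion channel list, Gpr17 and Tnr on the committed-stage list, and Ptprz1 on the growth factor list. The counts of higher and of lower genes and the medians are descriptions, to be read beside the shares of 9.69% and 8.99% over all genes tested. The calls of Pdgfa, Tgfb2 and Slc1a2 were each lost in 9 of 19 alternatives, those of Ptch1, Cd63 and Ngfr each in 7 of 19 and that of Smo in 7 of 18, with DESeq2 among them for all of these genes. In these sums, fewer cells of a kind and less RNA per cell cannot be told apart. The higher Malat1 level and mitochondrial share moved with every group described next, and their part in it was not tested.

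Precursor identity was read from the genes outside the gate. Of 25 genes 22 were tested, and 20 were called higher and 0 lower, with a median log2 fold change of 5.57. Of the 22, 18 were tested only because of the OPC-like sums, and of the 4 that reached the minimum in all marker-free sums 2 were higher and 0 lower. In 20 of the tested genes every OPC-like value lay above every marker-free value, as it did in 10.5% of all genes tested. The filter favours such a gap in the 18 genes, so this count is a description. Ptprz1, a receptor-type phosphatase that binds pleiotrophin, had 7.83, 15.9, 12.4 and 7.09 UMIs per 10000 in OPC-like cells, against 0.0977, 0.053, 0.0654 and 0.0207 in marker-free cells. The classes lay far apart in every mouse (log2 fold change 7.34, SE 0.23, edgeR adjusted p = 3.56e-27). Cspg5, the proteoglycan neuroglycan C, had 7.54, 11.8, 9.55 and 4.86 UMIs per 10000 in OPC-like cells, against 0.0668, 0.0379, 0.0872 and 0.0775 in marker-free cells. Mouse 4 was lowest and mouse 2 highest among the OPC-like cells, with no overlap (log2 fold change 6.77, SE 0.23, edgeR adjusted p = 1.1e-25). Pcdh15, a protocadherin, had 1.45, 2.25, 0.651 and 0.787 UMIs per 10000 in OPC-like cells and at most 0.0218 in marker-free cells (log2 fold change 7.01, SE 0.49). Several genes were almost absent outside the OPC-like cells. Sema3d, a secreted semaphorin, had 28 UMIs in OPC-like and 0 in marker-free cells, at least 149-fold higher when 3 UMIs are set as the floor over the marker-free class. Gpc5, a glypican, had 32 UMIs in OPC-like and 1 in marker-free cells (ratio of levels 511, counting interval 85.3 to 20804). Csmd3 had 43 in OPC-like and 2 in marker-free cells (343, counting interval 89.4 to 2925), C1ql2, a secreted C1q-like protein, 53 and 3 (282, counting interval 91.4 to 1411), and Megf11 32 and 2 (255, counting interval 65.2 to 2200). Omg, which encodes oligodendrocyte-myelin glycoprotein, rose by 7.21 on the log2 scale (SE 0.50). C1ql1 (0.20) and Gng3 (0.63) were tested and not called. Neu4, Lims2 and Susd5 did not pass the filter on low counts.

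**Figure D3:**
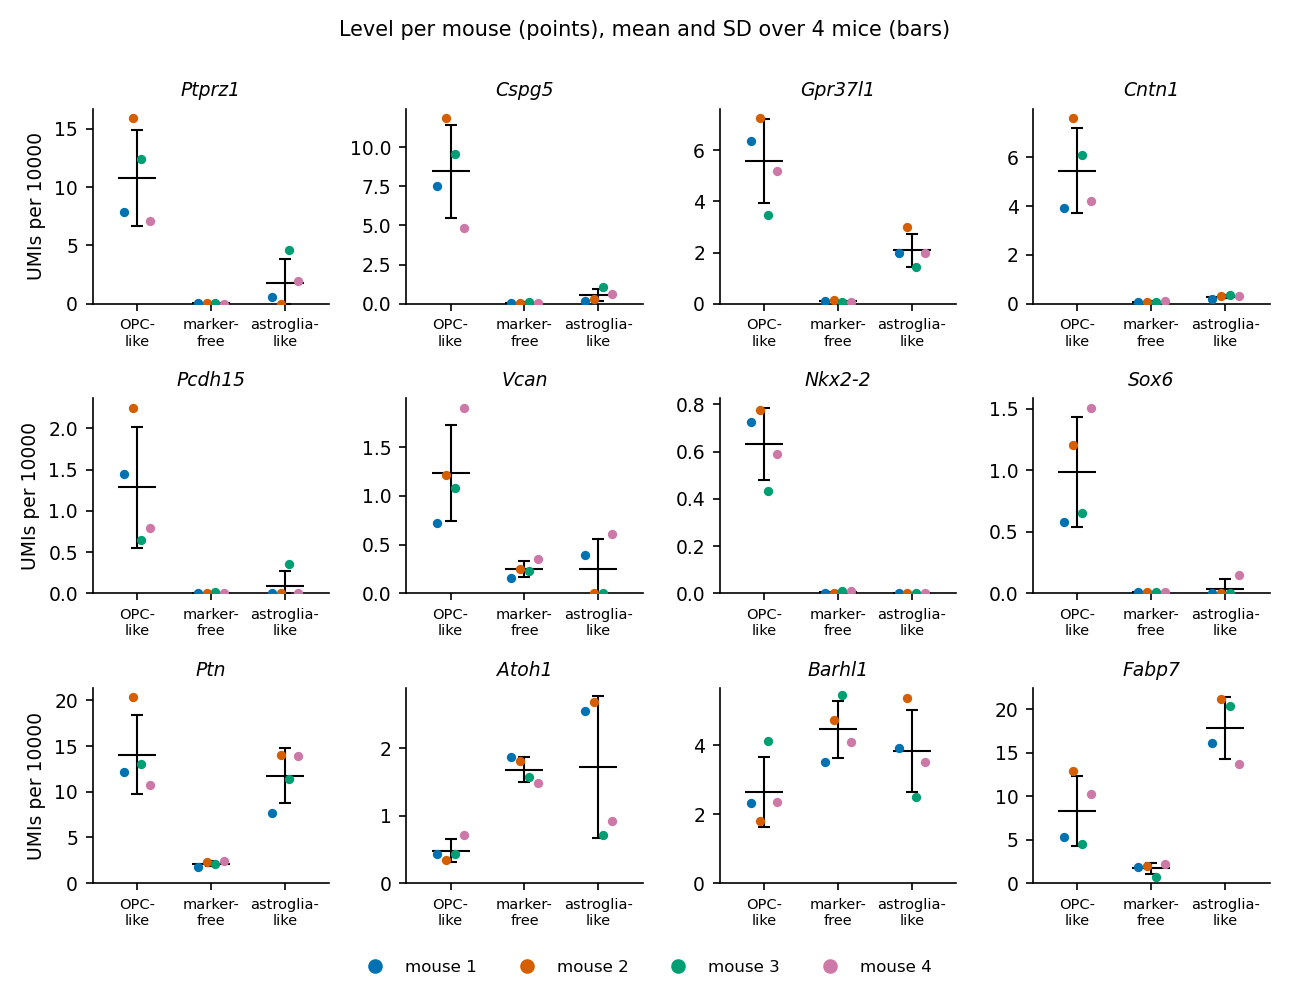
UMIs per 10000 of 12 genes in OPC-like, marker-free and astroglia-like cells, with points for mice and bars for the mean and SD over 4 mice. Ptprz1, Cspg5, Cntn1 and Nkx2-2 stood highest in the OPC-like cells of every mouse, and Fabp7 had its highest mean in the astroglia-like cells.

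Among 23 tested transcription factors of glia, 6 were higher and 8 lower, with a median of -0.13. Olig2 had 0.435, 1.82, 0.651 and 0.591 UMIs per 10000 in OPC-like cells, against 0.123, 0.0682, 0.0436 and 0.0207 in marker-free cells. Mouse 2 stood above the other mice, and the classes did not overlap (log2 fold change 3.77, SE 0.44, edgeR adjusted p = 4.52e-09). Sox6, which holds precursors back from differentiation, rose by 6.10 on the log2 scale (SE 0.45), and Sox8, a relative of Sox10, by 3.26 (SE 0.41). Nkx2-2 had 25 UMIs in OPC-like and 3 in marker-free cells (ratio of levels 133, counting interval 40.6 to 689). Etv5, a target of ERK signalling, and Tcf12, a partner of helix-loop-helix factors, were the other higher members. The lower members were Sox4, Sox9, Sox11, Nfia, Nfib, Nfix, Prox1 and Id1. Of these, Nfib averaged 8.38 ± 3.62 UMIs per 10000 in OPC-like and 14.7 ± 1.66 in marker-free cells (SD, n = 4 mice; log2 fold change -0.96, SE 0.15), lower in 3 of 4 mice. Sox9 and the Nfi factors have roles in glia and in granule cells.

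Of the growth factor ligands and receptors, 3 of 11 tested members were higher and 4 lower, with a median of -0.42. Ptn encodes pleiotrophin, a secreted ligand of the Ptprz1 product, and had 12.2, 20.4, 13 and 10.7 UMIs per 10000 in OPC-like cells, against 1.76, 2.37, 2.05 and 2.42 in marker-free cells. Every mouse showed the difference (log2 fold change 2.61, SE 0.14, edgeR adjusted p = 5.52e-19). Ntrk2, the receptor of brain-derived neurotrophic factor, rose by 3.01 on the log2 scale (SE 0.31). The ligand side of the PDGF pair ran the other way: Pdgfa had 2.46, 0.865, 1.95 and 0.787 UMIs per 10000 in OPC-like cells, against 2.27, 1.98, 2.55 and 1.69 in marker-free cells. It was lower in 3 of 4 mice and the classes overlapped (log2 fold change -0.70, SE 0.23, edgeR adjusted p = 0.0237), and the call was lost without mouse 2 (adjusted p = 0.23), mouse 3 (0.0609) or mouse 4 (0.175). Fgf9, Mdk and Tgfb2 were the other lower ligands. Without mouse 3 or mouse 4, Tgfb2 was not called (edgeR adjusted p = 0.0792 and 0.128).

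Genes that respond to growth factor signalling through ERK were tested in 9 cases. Of these 5 were higher (Phlda1, Etv4, Etv5, Dusp6 and Spred1) and 0 lower, with a median of 1.14. The OPC-like sums were needed to test 6 of them, and of the other 3 members 1 was higher and 0 lower. Phlda1 had 2.32, 2.51, 2.17 and 1.84 UMIs per 10000 in OPC-like cells, against 0.123, 0.0606, 0.0327 and 0.062 in marker-free cells. The classes lay far apart in each mouse (log2 fold change 4.83, SE 0.32, edgeR adjusted p = 6.95e-16). Etv5 rose by 1.51 on the log2 scale (SE 0.31) and Dusp6, a phosphatase that switches ERK off, by 0.99 (SE 0.34), the second in 3 of 4 mice. Of Notch pathway genes, Notch1 (log2 fold change 3.61, SE 0.52) and the ligand Dner (1.39, SE 0.31) were higher among 5 tested, with a median of 0.12. Dner was not called without mouse 2, at 0.92 (edgeR adjusted p = 0.113).

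Ion channels and transmitter receptors were higher in 11 of 13 tested cases and lower in 0, with a median of 2.37. Testing 11 of them needed the OPC-like sums, and of the other 2 members 2 were higher and 0 lower. The higher genes included the AMPA receptor subunits Gria2, Gria3 and Gria4, the NMDA receptor subunits Grin1 and Grin3a, the glutamate receptor Grm5 and the potassium channel genes Kcnd2 and Kcnj10. Gria2 had 3.04, 4.32, 1.95 and 2.69 UMIs per 10000 in OPC-like cells, against 0.818, 1.12, 0.676 and 1.0 in marker-free cells. The lowest OPC-like value, in mouse 3, was above the highest marker-free one (log2 fold change 1.66, SE 0.20, edgeR adjusted p = 6.2e-09). Grm5 rose by 6.15 on the log2 scale (SE 0.57), Kcnd2 by 5.47 (SE 0.51) and the adenosine receptor gene Adora1 by 4.71 (SE 0.56). These last 3 genes rest on 27, 30 and 21 UMIs in the OPC-like cells. Scn8a was tested and not called.

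Adhesion and contact genes were higher in 18 of 25 tested cases and lower in 1, with a median of 2.17. The OPC-like sums were needed to test 15 of them, and of the other 10 members 5 were higher and 1 lower. Cntn1, a contactin, had 3.91, 7.61, 6.08 and 4.2 UMIs per 10000 in OPC-like cells, against 0.0668, 0.0833, 0.0763 and 0.119 in marker-free cells. No value of one class came near the other (log2 fold change 5.78, SE 0.24, edgeR adjusted p = 7.36e-23). Cadm2 rose by 5.98 (SE 0.41) and Ncam2 by 4.84 (SE 0.54) on the log2 scale. The neurexin genes Nrxn2 and Nrxn3 and the neuroligin genes Nlgn1, Nlgn2 and Nlgn3, whose products join across synapses, were among the higher genes. Dcc, a netrin receptor, was the lower member, with 3 UMIs in OPC-like and 188 in marker-free cells, or 25.5% (counting interval 5.21 to 75.6%) of the marker-free level.

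Matrix and proteoglycan genes were higher in 14 of 22 tested cases and lower in 0, with a median of 2.26. For 11 of them the test needed the OPC-like sums, and of the other 11 members 4 were higher and 0 lower. Serpine2, an inhibitor of secreted proteases, had 18.6, 26.5, 16.3 and 12.1 UMIs per 10000 in OPC-like cells, against 0.417, 0.288, 0.196 and 0.403 in marker-free cells. Mouse 2 was highest and mouse 4 lowest among the OPC-like cells, and no value overlapped (log2 fold change 5.64, SE 0.18, edgeR adjusted p = 5.17e-27). Tnr, which encodes the matrix protein tenascin-R and whose promoter is printed above, rose by 6.49 on the log2 scale (SE 0.37). Vcan (2.27), Bcan (3.82), Ncan and Sdc3 were further core proteins of proteoglycans among the higher genes.

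Cholesterol genes were higher in 10 of 19 tested cases and lower in 0, with a median of 0.99. Only 4 of them needed the OPC-like sums to be tested, and of the other 15 members 8 were higher and 0 lower. Sqle, which encodes squalene epoxidase, had 3.19, 2.16, 1.95 and 1.84 UMIs per 10000 in OPC-like cells, against 0.658, 0.652, 0.621 and 0.589 in marker-free cells. The marker-free values were nearly equal between mice and lay below all OPC-like values (log2 fold change 1.77, SE 0.22, edgeR adjusted p = 3.55e-08). Msmo1 and Cyp51, enzymes further down the pathway, rose by 1.86 (SE 0.33) and 1.78 (SE 0.28). The list also holds Apoe, a lipid carrier and not an enzyme of synthesis, which was higher in 3 of 4 mice (log2 fold change 0.82, SE 0.17). Among 12 tested glycolysis genes Pkm was lower (-0.46, SE 0.14) and none was higher, with a median of -0.19. Lower genes made up 8.99% of all genes tested, so Pkm is no result about the list. Pkm was not called without mouse 1 or mouse 3 (edgeR adjusted p = 0.101 and 0.0732).

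**Figure D4:**
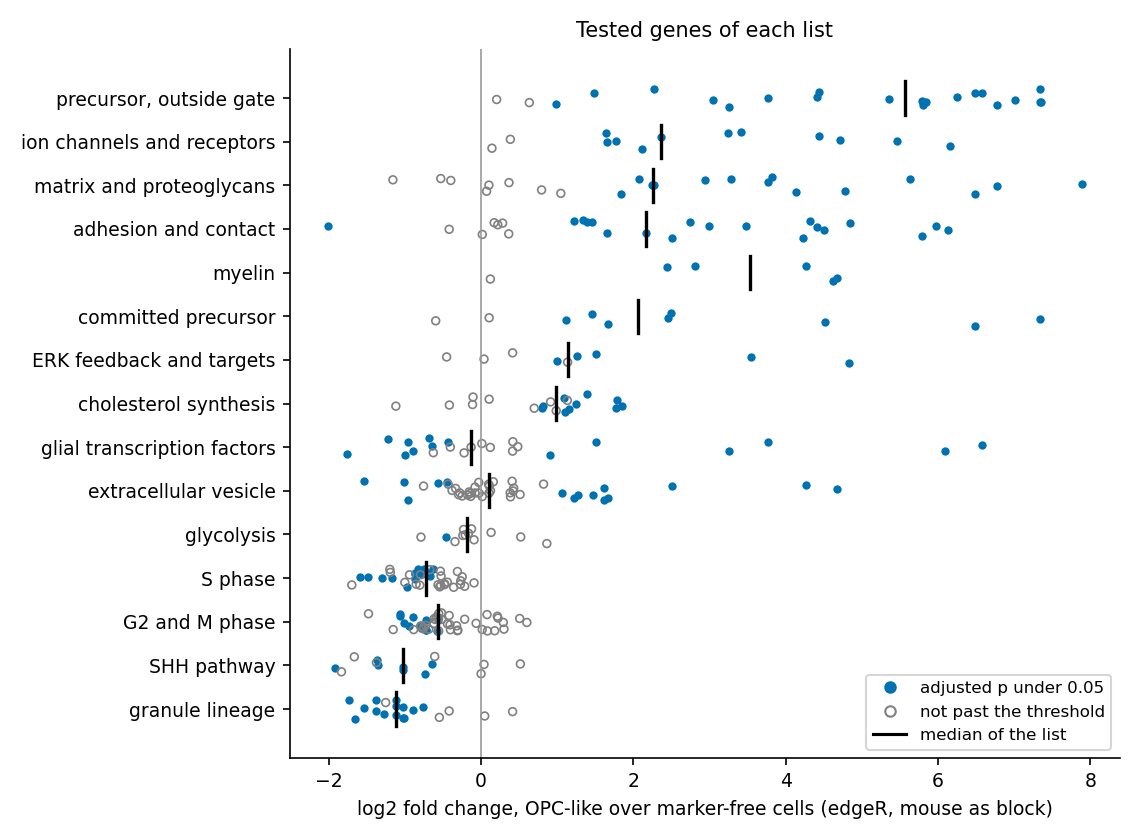
Log2 fold change of OPC-like over marker-free cells for each tested gene of 15 lists, with filled points for an adjusted p under 0.05 and a bar at the median of the list. The 22 tested precursor genes had a median of 5.57 and the 19 granule-lineage genes one of -1.11.

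Granule-lineage and hedgehog genes had lower members and no higher one. Of 19 tested granule-lineage genes 14 were lower and 0 higher, with a median of -1.11. All marker-free sums reached the minimum for testing in 17 of the 19, and how many relied on these sums alone was not counted. In 7 of them every OPC-like value lay below every marker-free value, as it did in 8.84% of all genes tested. Atoh1, the factor that defines granule neuron precursors and whose regulatory sequence drives the Cre here, had 0.435, 0.346, 0.434 and 0.722 UMIs per 10000 in OPC-like cells, against 1.88, 1.81, 1.57 and 1.49 in marker-free cells. It was lower in 4 of 4 mice, with no overlap (log2 fold change -1.74, SE 0.29, edgeR adjusted p = 1.28e-05), and rested on 20 UMIs in the OPC-like cells. Mfap4 (-1.65, SE 0.27), Zic5 (-1.53, SE 0.30) and Barhl1 (-0.89, SE 0.17) were lower as well. Among 14 tested genes of the hedgehog pathway 7 were lower and 0 higher, with a median of -1.02. In 12 of these 14 all marker-free sums reached the minimum for testing. Sfrp1, a secreted Wnt modulator, had 1.01, 0.778, 3.04 and 1.9 UMIs per 10000 in OPC-like cells, against 2.86, 4.63, 3.67 and 3.78 in marker-free cells. The OPC-like cells of mouse 3 were above the lowest marker-free value (log2 fold change -1.35, SE 0.22, edgeR adjusted p = 7.5e-06). Ptch1, the hedgehog receptor and a target of the pathway, had 2.61, 1.38, 1.3 and 0.984 UMIs per 10000 in OPC-like cells, against 2.93, 1.92, 2.8 and 2.15 in marker-free cells. It was lower within each mouse while the classes overlapped between mice (log2 fold change -0.73, SE 0.21, edgeR adjusted p = 0.00975). It was not called without mouse 3 (edgeR adjusted p = 0.0679) or mouse 4 (0.119). Mycn, an oncogene downstream of hedgehog signals, lost its call without mouse 2 (-0.53, edgeR adjusted p = 0.184). Smo had 5 UMIs in OPC-like and 291 in marker-free cells (log2 fold change -1.92, SE 0.56), and was not called without mouse 2 (edgeR adjusted p = 0.0514) or mouse 4 (0.136). The sources used here do not say whether transcripts of the SmoM2 transgene count under Smo. Gli1 had 5 UMIs in OPC-like and 201 in marker-free cells and was not called (-1.37, edgeR adjusted p = 0.11).

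The strongest decreases in called genes rested on 0 to 3 UMIs in the OPC-like cells. Wbscr27 had 0 UMIs in OPC-like and 146 in marker-free cells, at least 3.05-fold lower with 3 UMIs as the floor over the OPC-like class. Mgl2 stood at 6.21% (counting interval 0.157 to 34.9%) of the marker-free level, Plppr3 at 12.2% (counting interval 1.47 to 44.6%), Erich1 at 14.4% (counting interval 1.73 to 52.6%), Rdh5 at 15.6% (counting interval 3.2 to 46%) and Cyba at 16% (counting interval 1.93 to 58.7%). Btbd11 stood at 18.4% (counting interval 2.21 to 67.3%), Csdc2 and Abcd2 each at 18.6% (counting interval 2.23 to 68.1%), and Arl16 at 19.1% (counting interval 2.3 to 70.2%). The calls of Btbd11, Csdc2, Abcd2 and Arl16 were lost without mouse 3 (edgeR adjusted p = 0.0525 to 0.0893) and without mouse 4 (0.168 to 0.268). Without mouse 1, Btbd11 (edgeR adjusted p = 0.0984) and Csdc2 (0.082) were not called. Without mouse 2, Plppr3 (edgeR adjusted p = 0.0517), Cyba (0.12), Csdc2 (0.0675), Arl16 (0.116) and Abcd2 (0.201) were not called.

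A minority of the tested cell cycle genes were called lower in the OPC-like cells. Of 38 tested S phase genes 14 were lower, and of 50 tested genes of G2 and M phase 13 were lower, with medians of -0.72 and -0.57 and none higher. All marker-free sums reached the minimum for testing in 37 of the S phase and 48 of the G2 and M phase genes. By gate level (10 to 20, 20 to 50, and 50 or more), G2 and M phase genes summed to 82.4, 103 and 25.7 UMIs per 10000 in OPC-like cells. Marker-free cells held 91.9, so the bin of 20 to 50 was above them. S phase genes stood at 36.2, 27.3 and 19.4 in these bins, against 42.8. The bins pool mice and differ in depth, and the part of this was not tested. Top2a, the topoisomerase of dividing cells, had 1.88, 1.12, 1.3 and 2.95 UMIs per 10000 in OPC-like cells, against 2.69, 3.6, 3.35 and 3.89 in marker-free cells. The OPC-like cells of mouse 4 overlapped with marker-free values (log2 fold change -0.90, SE 0.20, edgeR adjusted p = 7.17e-04), and without mouse 2 the call was lost (-0.62, adjusted p = 0.0523). Mki67, the proliferation marker Ki-67, had 0.725, 1.04, 1.3 and 2.17 UMIs per 10000 in OPC-like cells, against 1.65, 2.05, 2.17 and 2.08 in marker-free cells. It was not called (-0.56, edgeR adjusted p = 0.0809), but was without mouse 4, whose OPC-like cells held the most (-1.06, adjusted p = 0.0104).

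In cells thinned to 1000 UMIs, a UMI of Mki67 or Top2a was in 11.5%, 17.4%, 15.8% and 29.2% of OPC-like cells, against 20.1%, 24.4%, 27.4% and 30.3% of marker-free cells. The share averaged 18.5% ± 7.55 in OPC-like and 25.5% ± 4.34 in marker-free cells (SD, n = 4 mice). The difference was -7.06 ± 4.41 percentage points, below 0 in 4 of 4 mice. In cells thinned to 2000 UMIs, which left 66 OPC-like cells, it was -4.91 ± 23.1 points and below 0 in 2 of 4 mice. At 1000 UMIs, flipping the signs of the 4 differences in all ways gave an exact two-sided p of 0.125, which is the lowest that 4 mice allow. Thinning left out 22 of the 161 OPC-like and 508 of the 2793 marker-free cells, which were shallower. Without thinning the shares were 27.8% in OPC-like and 36.4% in marker-free cells. In thinned myeloid cells 3 of 29 (10.3%) had such a UMI.

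Within the OPC-like cells, transcripts of the committed and myelinating stages were concentrated in a subset. At least 3 UMIs of a list of 21 myelin genes were in 31 cells, of which 3, 6, 2 and 20 came from mice 1 to 4. This split was made on the counts and is described without a test. Those 31 cells were deeper, with a median of 3434 UMIs against 1686.5 in the other 130. Enpp6 had 43 UMIs in the 31 cells and 0 in the 130, Bmp4 7 and 0, and Gpr17, a receptor that peaks in committed precursors, 52 and 18. Sirt2, a deacetylase of maturing oligodendrocytes, stood at 16.7 UMIs per 10000 in the 31 cells and 1.39 in the 130, and the kinase gene Fyn at 8.2 and 0.657. Pdgfra ran the other way, at 2.41 in the 31 cells and 6.96 in the 130. Lhfpl3 was nearly level at 7.31 and 7.73. Enpp6 was seen in 11 OPC-like cells: 1 of the 110 cells with a Pdgfra UMI and 10 of the 51 without, at median depths of 1766.5 and 1793 UMIs. Of the 11 cells 8 also held Gpr17 and 0 held Cspg4. The myelin-stage genes Mal, Ermn, Opalin, Aspa and Apod had 0 UMIs in the OPC-like cells.

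**Figure D5:**
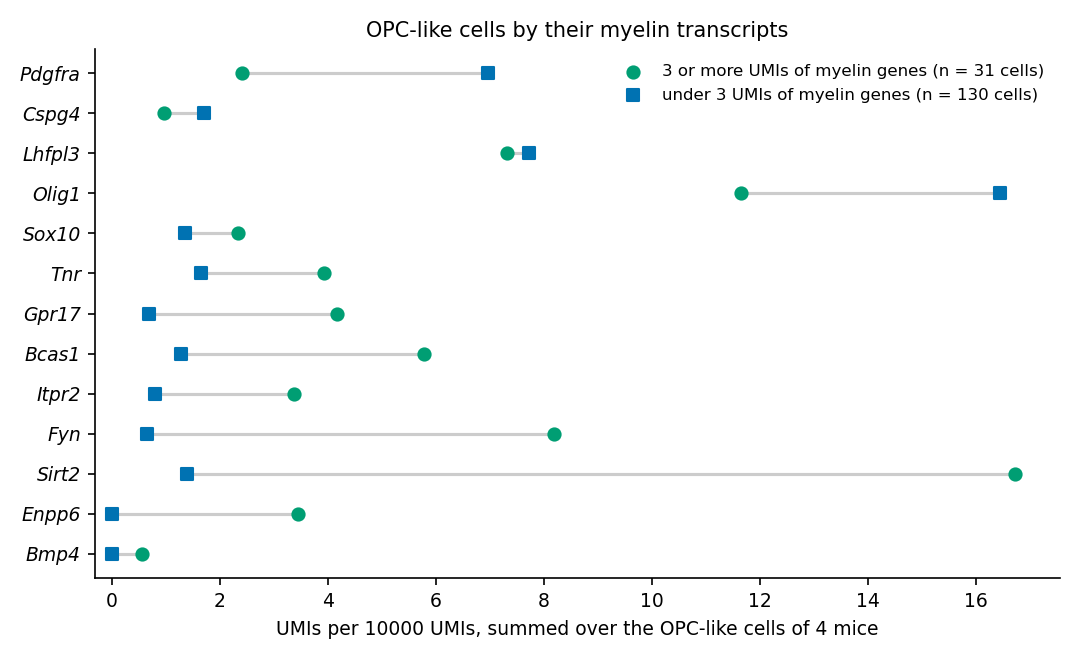
UMIs per 10000 of 13 genes in the 31 OPC-like cells with at least 3 UMIs of myelin genes (circles) and in the other 130 (squares), summed over 4 mice. Sirt2, Fyn, Gpr17 and Enpp6 stood higher in the 31 cells and Pdgfra stood lower, at 2.41 against 6.96.

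Against marker-free cells, 8 of 10 tested committed-stage genes and 5 of 6 tested myelin genes were higher and none lower, with medians of 2.06 and 3.54. The OPC-like sums were needed to test 4 of the committed-stage and 5 of the myelin genes. Mbp was not called by DESeq2. Gpr17 had 1.01, 1.73, 0.434 and 2.69 UMIs per 10000 in OPC-like cells and at most 0.0155 in marker-free cells (log2 fold change 7.34, SE 0.43, edgeR adjusted p = 1.01e-17). Cnp, an enzyme of myelin membranes, had 2.9, 6.57, 2.17 and 8.6 UMIs per 10000 in OPC-like cells, against 0.195, 0.159, 0.153 and 0.517 in marker-free cells (log2 fold change 4.27, SE 0.22, edgeR adjusted p = 2.73e-19). Both genes were lowest in the OPC-like cells of mouse 3 and highest in those of mouse 4. Mbp, which encodes myelin basic protein, had 1.01, 5.79, 0.217 and 11.7 UMIs per 10000 in OPC-like cells, against 0.417, 0.576, 0.567 and 1.87 in marker-free cells. It was higher in mice 1, 2 and 4 and lower in mouse 3 (log2 fold change 2.44, SE 0.24). Leaving out the 31 cells gave Mbp a log2 fold change of -1.34, which follows from their choice by myelin UMIs. Of the 2793 marker-free cells, 104 also held at least 3 myelin UMIs, of which 11, 13, 6 and 74 came from mice 1 to 4. The myelin list was highest in mouse 4 in every class. It summed to 12.5, 24.0, 4.34 and 34.5 UMIs per 10000 in OPC-like cells of mice 1 to 4. In marker-free cells it summed to 1.32, 1.39, 1.21 and 3.80, and in astroglia-like cells to 1.97, 4.49, 3.22 and 9.0. The part of the mouse or its library in these levels was not tested.

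Genes that other glia share and stress-response genes were also measured. Fabp7, a fatty acid binding protein of glial progenitors, had 5.36, 13, 4.56 and 10.3 UMIs per 10000 in OPC-like cells, against 1.91, 1.96, 0.741 and 2.21 in marker-free cells. Every OPC-like value was above every marker-free one (log2 fold change 2.22, SE 0.16, edgeR adjusted p = 1.32e-14). Of 7 tested astroglia markers 4 were higher (among them Slc1a2, Atp1b2 and Fabp7) and Gfap was lower, with a median of 0.67. Slc1a2 was not called without mouse 2 (edgeR adjusted p = 0.306) or mouse 4 (0.164). The immediate early genes Fos (log2 fold change 1.77, SE 0.16), Fosb (2.93, SE 0.34) and Junb (1.76, SE 0.26) rose, while Ier2 and Btg2 fell, of 11 tested with a median of -0.20. Tissue dissociation can raise such genes, and its part was not tested. The remaining lists had few tested members. H2-D1 was higher among 3 antigen presentation genes and lost its call without mouse 1 (edgeR adjusted p = 0.0576) or mouse 2 (0.181). Among 3 chemokine and cytokine genes Cxcl14 was higher (2.91, SE 0.43) and Mif and Tgfb2 were lower, Mif not without mouse 2 (edgeR adjusted p = 0.0538). Of 7 tested microglia genes 4 were lower. The marker-free class held 32 myeloid and 46 astroglia-like cells, whose part in the levels of microglia genes and Gfap was not tested. Ngfr, on the Schwann cell list, and Lhx1, on that of other neurons, were lower as the only tested members of those lists, and Ngfr lost its call without mouse 2 (edgeR adjusted p = 0.0533) or mouse 4 (0.146).

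Of 43 tested genes tied to extracellular vesicles, which the series title names, 10 were higher and 5 lower, with a median of 0.10. Over all genes tested, 9.69% were higher and 8.99% lower, so the 5 lower members are no result about the list. The tetraspanin gene Cd9 had 19.9, 19.3, 9.12 and 28.1 UMIs per 10000 in OPC-like cells, against 5.6, 6.02, 5.15 and 6.08 in marker-free cells. Mouse 3 was lowest and mouse 4 highest, and the classes did not overlap (log2 fold change 1.67, SE 0.14, edgeR adjusted p = 6.85e-13). Cd81, another tetraspanin gene, had 12, 17.9, 14.8 and 12.3 UMIs per 10000 in OPC-like cells, against 7.29, 6.59, 7.58 and 5.17 in marker-free cells (1.06, SE 0.13). Cd63 had 13.5, 8.82, 9.33 and 10.4 UMIs per 10000 in OPC-like cells, against 12.9, 13.6, 15.1 and 13.5 in marker-free cells. It was lower in 3 of 4 mice (log2 fold change -0.45, SE 0.13, edgeR adjusted p = 0.00789), and lost its call without mouse 2 (0.0708) or mouse 3 (0.118). The higher members included Cnp, which is a myelin gene. Of the sorting and fusion machinery, Vps37b, Vps4b and Stx6 were called lower, while Tsg101, Hgs, Rab7 and Vamp7 were not called.

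The OPC-like cells were then set against the astroglia-like cells, another class of glia in these tumours, of which mice 1 to 4 held 22, 14, 8 and 23. The 4 cells that met both gates were left out. Genes called higher included precursor identity, adhesion and matrix genes, and genes called lower included astroglial ones. Of 1041 genes tested outside both gates, 122 (11.7%) were called, 82 higher (7.88%) and 40 lower (3.84%), with a median log2 fold change of -0.01. The count was 63 without mouse 2, 202 without mouse 3 and 64 without mouse 4. Without the replicate block it was 81, and DESeq2 called 36. Median depth was 1776 UMIs in OPC-like and 2270 in astroglia-like cells, and median Malat1 448 and 94.4 UMIs per 10000, and the part of this was not tested.

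All 5 tested precursor genes (Ptprz1, Cspg5, Cntn1, Tnr and Gpr37l1) were higher than in astroglia-like cells, with a median of 4.04, or 3.85 with Tnr at its lower bound. None of the 5 reached the minimum for testing (1.72 UMIs per 10000) in the astroglia-like sums of all mice, so they could be tested only because of the OPC-like sums. In all 5 the classes did not overlap, as in 6.05% of genes tested. The filter favours such a gap in these 5 genes, so this count is a description. Cspg5 had 7.54, 11.7, 9.55 and 5.01 UMIs per 10000 in OPC-like cells, against 0.197, 0.299, 1.07 and 0.611 in astroglia-like cells (log2 fold change 4.04, SE 0.32, edgeR adjusted p = 2.93e-08). Ptprz1 had 7.83, 15.9, 12.4 and 7.2 UMIs per 10000 in OPC-like cells, against 0.591, 0, 4.65 and 1.98 in astroglia-like cells. Mouse 3 held the most Ptprz1 in astroglia-like cells (log2 fold change 2.75, SE 0.36, edgeR adjusted p = 1.69e-05). Tnr had 91 UMIs in OPC-like and 0 in astroglia-like cells, at least 14.4-fold higher with 3 UMIs as the floor over the class. The imprinted noncoding RNA gene Meg3 had 167 UMIs in OPC-like and 1 in astroglia-like cells (ratio of levels 79.5, counting interval 14.1 to 3157), and the adhesion gene Opcml 152 and 2 (36.2, counting interval 9.84 to 301). Of adhesion genes 3 of 5 tested were higher and 0 lower, with a median of 2.76, and of matrix genes 4 of 6 were higher and 0 lower, with a median of 2.63. These counts repeat precursor genes named above, Cntn1 among the adhesion genes and Cspg5 and Tnr among the matrix genes. The OPC-like sums were needed to test 4 of these adhesion and 4 of these matrix genes. Pcsk1n, a proprotein convertase inhibitor, rose by 4.10 (SE 0.36) and Cnp by 3.09 (SE 0.29) on the log2 scale. Fos had 5.36, 6.03, 6.08 and 6.1 UMIs per 10000 in OPC-like cells, against 1.18, 0, 0.357 and 0 in astroglia-like cells (log2 fold change 4.01, SE 0.44). The astroglia-like cells of mice 2 and 4 were at 0 for Fos, and without mouse 1 its log2 fold change was 6.10. Phlda1 (3.33), Mmp16 (3.03), Lsamp (2.76), Serpine2 (2.24), Sqle (2.17), Cd9 (1.61), Gria2 (1.54) and Tspan3 (1.32) were higher as well. Cd81 was higher (0.57, edgeR adjusted p = 0.018) and lost its call without mouse 2 (0.38, adjusted p = 0.199) or mouse 4 (0.0708). In all it was lost in 8 of 19 alternatives, DESeq2 among them, and with the stricter astroglia gate Cd81 was at -0.17.

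Astroglial genes outside the gate lists were lower. Of 4 tested markers 3 were lower, with a median of -1.55, and in 3 every OPC-like value lay below every astroglia-like one, as in 9.41% of genes tested. The 3 lower markers reached the minimum for testing in all astroglia-like sums. A gene near 0 in OPC-like cells could be tested only through those sums, so these counts are descriptions. Gfap, the intermediate filament of astrocytes, had 0.145, 0.177, 0 and 0.206 UMIs per 10000 in OPC-like cells, against 1.97, 2.39, 5.0 and 2.14 in astroglia-like cells (log2 fold change -3.70, SE 0.57, edgeR adjusted p = 1.13e-04). Apoe had 19.1, 11.9, 6.73 and 6.93 UMIs per 10000 in OPC-like cells, against 51.4, 40.1, 102 and 68.4 in astroglia-like cells (log2 fold change -2.34, SE 0.27, edgeR adjusted p = 3.5e-06). Neither gene overlapped between the classes. The glutamate transporter gene Slc1a3 (-2.17, SE 0.38), the glutamine synthetase gene Glul (-2.10, SE 0.22) and the metallothionein genes Mt1 (-1.96, SE 0.22), Mt2 (-1.98, SE 0.30) and Mt3 (-2.02, SE 0.30) fell with them. In cells of at least 2000 UMIs, which left 3 mice, 12 of 872 tested genes were called higher and 0 lower. None of the decreases named in this comparison was thus called in that setting. The call of Mt1 was lost in 3 of 18 alternatives. Car2 (-2.81), Gstm1 (-2.59) and Ifitm2 (-2.0) were lower too. Fabp7, which was above its marker-free level, was below its astroglia-like one (log2 fold change -0.92, SE 0.20, edgeR adjusted p = 0.0036). That call was lost in 5 of 19 alternatives, and in cells of at least 2000 UMIs the log2 fold change was 0.33 (edgeR adjusted p = 0.913). Nfib was lower (-0.62, edgeR adjusted p = 0.0243), but not called without mouse 2 (0.149) or mouse 4 (0.177), and was lost in 10 of 19 alternatives. Ptn (0.38), Pdgfa (-0.13), Mki67 (-0.20) and Top2a (-0.18) were tested and not called. None of 15 tested genes of G2 and M phase, 4 of S phase, 5 of the granule lineage and 7 of glycolysis was called. This comparison shares its OPC-like cells with the one against marker-free cells.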

How the data were processed

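Single-cell 3' RNA libraries of 4 tumours were analysed, 1 library per littermate, which is the replicate. The authors deposited raw UMI counts for each gene and cell barcode, which are whole numbers. Per the submitters' processing notes, Cell Ranger 2.0.2, Seurat and mm10 were used, with the annotation release not given in the sources used here. The libraries held 1679285 to 3801197 UMIs. Cells with at least 500 genes and at most 10% mitochondrial UMIs were kept. These filters kept 4137 cells, and the gene minimum by itself 4620, where the study states 4749. No doublet caller was run, and deep cells or cells with granule genes were left out as alternatives.

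Levels are UMIs per 10000 UMIs of a class in a mouse. Summed counts were tested with edgeR 4.0.16 (quasi-likelihood, TMM, filterByExpr, mouse as block, Benjamini-Hochberg over all genes tested, R 4.3.3), DESeq2 1.42.0 being an alternative. Library sizes were taken over all genes, a choice made after seeing the data. The SE is the log2 fold change divided by the root of the F statistic and is no spread over mice. Counting intervals are 95% exact Clopper-Pearson intervals over pooled UMIs. Classes of a mouse come from 1 animal. Their deviations from the class means correlated at 0.135 to 0.211 against marker-free and 0.106 to 0.220 against astroglia-like cells. Scripts were tested on simulated data.

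The OPC-like cells, the gene lists and the rules were chosen with earlier results of these data known. Genes named by rule were the 10 largest called changes per direction, the same in every mouse, with at least 20 UMIs in the higher class, the 3 largest of each list, and a fixed set including Olig2, Ptprz1, Mbp, Mki67, Ptch1 and Cd9. Other list members, and the promoters printed, are examples chosen after their values were seen. The myeloid cells (at least 10 UMIs of the microglia list from 3 genes) were also defined after seeing the data. Some list members are not reported here by name, and the list counts include them.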

Additional observations from a re-analysis of the deposited data

Results flagged for a closer look

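Of 124 values tested over the 4 mice, 13 had a mouse far from the other 3 by Dixon's criterion, where chance flags about 1 in 20. No cause was tested. A gene at 0 in 3 mice is flagged at any count in the other mouse. The rate of 1 in 20 thus does not apply to Btbd11, Mgl2 and Abcd2. For scale, 1 UMI in the OPC-like cells was worth 0.145 per 10000 in mouse 1 and 0.0865 in mouse 2. Mouse 2 stood high for the gate genes (64.2 UMIs per 10000, the others 36 to 38.2), the precursor genes outside the gate (75.8, the others 44.9 to 48), Olig2 (1.82, the others 0.435 to 0.651), Sema3d (1.04, the others 0.58 to 0.651) and Btbd11 (0.173, the others 0). In mouse 2, 39 of 52 OPC-like cells had at least 50 gate UMIs per 10000, against 17 of 36, 9 of 23 and 19 of 50 in mice 1, 3 and 4. Mouse 1 stood high for the microglia list (5.51, the others 0 to 0.131), 38 of whose 40 UMIs lay in 1 cell, and for Gins2 (0.435, the others 0.173 to 0.217), Mgl2 (0.145, the others 0) and Abcd2 (0.29, the others 0), and low for Ugt8a (0.58, the others 1.09 to 1.12). Mouse 4 stood high for Mki67 and Top2a together (5.12, the others 2.16 to 2.61) and for markers of other neurons (1.9, the others 0.725 to 0.868), and low for Atp1b2 (0.197, the others 1.09 to 1.21).

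Outside the filters on cells, 62 of 1533 barcodes met the gate, 25 with under 500 genes and 37 over the mitochondrial limit only. Their median mitochondrial share was 11.8% and their median depth 855 UMIs. They held 86.8 UMIs per 10000 of the precursor genes outside the gate.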

How the results depend on the processing

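Against marker-free cells, 1230 genes were called. The count moved by more than 1.5 times with DESeq2 (736), in cells of at least 2000 UMIs (275), thinned to 1000 UMIs (611) and at most 5% mitochondrial UMIs (460), and ranged from 739 to 1193 with a mouse left out. Against astroglia-like cells, 122 were called. That count was 286 without the filter on low counts, 36 with DESeq2, 187 with at least 20 gate UMIs per 10000, 12 in cells of at least 2000 UMIs, 43 thinned, 44 at 5% mitochondrial UMIs, 211 without OPC-like cells with granule genes, 51 without low-Malat1 cells, 63 with a stricter astroglia gate, and 63 to 202 with a mouse left out. The 2000-UMI, mitochondrial and stricter-gate settings used 3 mice here, and at 2000 UMIs all 12 called genes were higher and 0 lower. Without the replicate block, which pairs classes of 1 animal, the counts were 1007 (580 higher, 427 lower) and 81. With DESeq2 size factors the split against marker-free cells was 692 higher and 482 lower. The share of OPC-like cells was 2.3% at 5% mitochondrial UMIs and 3.38 to 4.46% with a mouse left out. The difference in cycling share was -4.91 points at 2000 UMIs (exact sign-flip p = 0.75) and -9.05 to -5.55 with a mouse left out. Of 78 named genes called against marker-free cells, 45 were called in every alternative that tested them, and of 29 against astroglia-like cells, 17.

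Against astroglia-like cells, values that were not called changed sign for Mki67 (-0.062 to 0.042 without mouse 1, 2 or 3) and Pdgfa (-0.16 to 0.0063 without mouse 2, 3 or 4). The same held for Top2a (-0.41 to 0.38 without mouse 1, 2 or 3, 0.41 at 2000 UMIs, 0.56 at 5% mitochondrial UMIs). Without mouse 4 neither Mki67 nor Top2a was tested, and without mouse 1 Pdgfa was not. In mouse 4 OPC-like cells held more Mki67 (2.26 against 1.07 UMIs per 10000) and Top2a (3.09 against 0.611) than astroglia-like cells. Mki67 was lower in OPC-like cells in the other mice, and Top2a in 2 of 4 mice. Fabp7 was 0.33 at 2000 UMIs and Cd81 -0.17 with the stricter astroglia gate. The causes were not tested. Against marker-free cells, Mbp was -1.34 without OPC-like cells with myelin UMIs, which removes the cells that hold it. After seeing the data, library sizes over tested genes (counts 1231 and 121) and leaving out the cell with microglia UMIs (1221 and 127) were added. With 46075 UMIs in the OPC-like cells of mouse 3, decreases in low genes were hard to detect.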
